A study of Mus musculus with 12 samples.

Results

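Cholesterol synthesis in the liver was followed through 7 genes, chosen by name from the pathway that the transcription factor SREBP-2 controls. They are 6 enzyme genes, Hmgcs1, Idi1, Fdps, Sqle, Lss and Cyp51, and Srebf2, which encodes SREBP-2 itself. All 7 had a row among the 56923 genes of the count table, and all 7 were among the 16839 genes that passed the filter on low counts. Their Ensembl identifiers are ENSMUSG00000093930 (Hmgcs1), ENSMUSG00000058258 (Idi1), ENSMUSG00000059743 (Fdps), ENSMUSG00000022351 (Sqle), ENSMUSG00000033105 (Lss), ENSMUSG00000001467 (Cyp51) and ENSMUSG00000022463 (Srebf2). None of the 7 takes up cholesterol; genes of uptake, transport and efflux were looked at as a separate list. Whole livers of 12 mice, wild type and of strain C57BL/6J, were sequenced as RNA, with 3 animals in each of 4 groups that the labels call biological replicates. Treatment began at an age of 6 weeks. Every animal, controls included, received the hepatotoxin carbon tetrachloride (CCl4) in olive oil at 7.5%, of which 200 µL went into the abdomen 2 times a week over 6 weeks. Controls had CCl4 alone, so no uninjured liver was part of any comparison. Curcumin, the yellow polyphenol of turmeric, was added for 2 weeks as a daily gavage, and the dose was 25 mg/kg in the low group, 50 mg/kg in the medium group and 100 mg/kg in the high group. The labels do not say whether control mice were gavaged without curcumin. They give 3 mice to a cage but not which mice shared one, so effects of cage and group cannot be told apart.

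Cells make cholesterol from acetyl-CoA in a long chain of enzymes that first builds isoprenoid units, joins them to squalene and then folds squalene into the sterol ring. When sterols run short in the membrane of the endoplasmic reticulum, the escort protein SCAP carries SREBP-2 to the Golgi, where proteases release the part that enters the nucleus and switches on nearly every gene of the chain. Insulin-induced gene products (INSIG) hold SCAP back when sterols are plentiful. The liver is a main site of this synthesis, and it turns cholesterol into bile acids and lipoproteins.

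Library totals ran from 36015134 to 70376474 counts. Mitochondrially encoded transcripts took 30.3% (high replicate 1) to 64.7% (high replicate 2) of them, and the share was below 50% in 4 libraries only, which were high replicates 1 and 3, low replicate 3 and medium replicate 1. The sum of 8 hepatocyte markers was 25216 to 45930 CPM (counts scaled to a common library size) in those 4 libraries and 4469 to 11715 CPM in the other 8. The sum of 7 stellate cell and fibroblast markers followed the same split more narrowly, at 62.8 to 234.5 CPM against 26.7 to 61.0 CPM. Markers of macrophages summed to 60.9 to 138.5 CPM in the controls and 41.2 to 59.1 CPM in the curcumin livers. Those of neutrophils summed to 9.8 to 38.3 CPM and 4.4 to 8.8 CPM, without overlap in either case. The closest macrophage sums were 60.9 CPM (control replicate 3) and 59.1 CPM (high replicate 2). These gaps were not tested, the sums are given on 1 scale only, and the share of all genes with such a gap was not computed. Over all 12 libraries the other sums were 2.7 to 13.2 CPM for B and T cells, 16.0 to 31.9 CPM for endothelial cells, 1.7 to 17.1 CPM for cholangiocytes and 73.5 to 833.8 CPM for erythroid cells. Of 3 adrenal markers Star alone passed the filter (1.4 to 3.7 CPM) and 1 was at 0 everywhere. Counting error was small for the 7 genes, since the lowest count of any of them in a library was 114 (Cyp51, low replicate 1).

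The promoters were searched for letters that SREBP-2 and its partners are known to read, and they are given because these genes are often switched together. RefSeq promoters of 250 bases before to 50 bases after the start were at hand for Hmgcs1, Idi1, Lss, Cyp51 and Srebf2. The 180 bases before the start are printed 5′ to 3′ on the gene's strand, from build GRCm38.p6, which is not the build of the count table. They lie at chr13:119690171-119690350 (+ strand), chr13:8885426-8885605 (+), chr10:76531425-76531604 (+), chr5:4104698-4104877 (− strand) and chr15:82147089-82147268 (+). Capitals mark, on either strand, the sterol element TCACNCCAC or its first 8 letters TCACNCCA, the CCAAT box, which reads ATTGG on the other strand, and the GC box, written GGGCGG on its own strand and seen as CCGCCC from the other.
Hmgcs1: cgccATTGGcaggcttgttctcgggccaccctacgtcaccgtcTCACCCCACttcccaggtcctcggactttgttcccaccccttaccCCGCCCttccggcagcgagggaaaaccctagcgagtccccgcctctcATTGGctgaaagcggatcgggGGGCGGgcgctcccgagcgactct
Idi1: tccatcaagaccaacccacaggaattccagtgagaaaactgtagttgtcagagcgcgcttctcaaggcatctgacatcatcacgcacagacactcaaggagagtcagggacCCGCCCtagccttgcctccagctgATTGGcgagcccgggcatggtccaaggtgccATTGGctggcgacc
Lss: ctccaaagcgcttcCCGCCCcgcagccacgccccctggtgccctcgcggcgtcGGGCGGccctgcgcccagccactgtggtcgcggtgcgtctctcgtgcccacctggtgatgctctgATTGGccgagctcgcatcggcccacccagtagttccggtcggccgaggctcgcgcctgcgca
Cyp51: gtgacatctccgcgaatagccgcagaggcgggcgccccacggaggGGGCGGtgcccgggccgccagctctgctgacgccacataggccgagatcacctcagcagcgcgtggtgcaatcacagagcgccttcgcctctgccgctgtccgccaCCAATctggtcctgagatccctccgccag
Srebf2: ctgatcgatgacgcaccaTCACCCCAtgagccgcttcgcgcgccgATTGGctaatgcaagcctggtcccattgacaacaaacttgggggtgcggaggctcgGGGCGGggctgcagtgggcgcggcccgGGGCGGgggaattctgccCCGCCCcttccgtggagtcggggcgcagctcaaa
The full sterol element stood in Hmgcs1, 137 bases before the start, and in 1.24% of all 32851 promoters of the same length. Its first 8 letters, a form added after the sequences were seen and contained in the full one, stood in Hmgcs1 and also in Srebf2, 162 bases before the start, against 4.36% of all promoters. Neither form was found in Idi1, Lss or Cyp51. A CCAAT box lay in all 5 promoters (37.41% of all) and a GC box in all 5 as well (35.66% of all). These matches describe letters in a window and do not show binding.

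Hmgcs1 encodes the cytosolic synthase that makes HMG-CoA, the precursor of mevalonate. Its level, as CPM on library sizes scaled by the trimmed mean of M-values (TMM), was 66.6, 77.0 and 50.6 in the controls, 29.3, 49.1 and 333.5 at the low dose, 179.2, 144.1 and 46.0 at the medium dose and 233.5, 22.5 and 178.3 at the high dose. The controls lay close together, while every curcumin group held at least 1 liver above all controls and at least 1 below all of them. The log2 fold change against control was 1.09 ± 0.91 (SE) at the low dose, 0.93 ± 0.91 at the medium dose and 1.16 ± 0.91 at the high dose, with 95% intervals from -0.89 to 3.06, -1.04 to 2.89 and -0.82 to 3.14. The lean towards higher levels at the low dose came from replicate 3, without which the value was -0.73.

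Idi1 encodes the isomerase that interconverts the C5 building blocks isopentenyl and dimethylallyl diphosphate. Its CPM was 5.24, 18.7 and 11.2 in the controls, 10.1, 20.6 and 19.0 at the low dose, 8.89, 14.6 and 9.81 at the medium dose and 26.5, 7.92 and 10.7 at the high dose. Control replicate 1 held the lowest of the 12 values, and all 3 dose groups overlapped the controls. Its log2 fold changes were 0.50 ± 0.50, -0.08 ± 0.50 and 0.36 ± 0.50, of which the second turns to 0.36 when scaled by library totals and the last to -0.11 when scaled by totals that leave out mitochondrial genes. Without high replicate 1 the high-dose value was -0.33, and without control replicate 2 the medium-dose value was 0.44.

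Fdps encodes farnesyl diphosphate synthase, whose product feeds sterols, dolichol and protein prenylation. Its CPM was 17.9, 36.1 and 27.1 in the controls, 22.7, 21.5 and 81.2 at the low dose, 50.4, 37.1 and 15.5 at the medium dose and 66.7, 17.9 and 53.4 at the high dose. As for Hmgcs1, low replicate 3 and high replicate 1 were the highest of all livers. At the medium dose 1 liver lay below every control. High replicate 2 was nearly equal to the lowest control, at 17.857 against 17.869 CPM. The log2 fold changes were 0.63 ± 0.61, 0.35 ± 0.61 and 0.77 ± 0.62. Without low replicate 3 the low-dose value was -0.30, and without medium replicate 1 the medium-dose value was -0.037.

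Sqle encodes squalene epoxidase, a rate-limiting enzyme at which the chain first needs oxygen. Its CPM was 4.88, 17.3 and 11.8 in the controls, 7.92, 11.1 and 19.0 at the low dose, 12.9, 14.8 and 8.16 at the medium dose and 28.3, 10.7 and 17.0 at the high dose. High replicate 1 had the highest value and control replicate 1 the lowest, and no dose group stood clear of the controls. The log2 fold changes were 0.16 ± 0.48, 0.07 ± 0.48 and 0.72 ± 0.48, of which the first 2 turn to -0.092 and -0.078 when scaled by totals without mitochondrial genes. Without control replicate 1 they were -0.20 and -0.29, and without low replicate 3 the low-dose value was -0.26.

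Lss encodes lanosterol synthase, which folds squalene epoxide into the ring system. Its CPM was 8.53, 35.8 and 33.6 in the controls, 20.3, 19.1 and 24.0 at the low dose, 18.2, 29.8 and 14.9 at the medium dose and 18.5, 16.2 and 15.8 at the high dose. The 9 curcumin livers all lay between control replicate 1, the lowest of the 12, and control replicates 2 and 3, the highest. Lss was the member with a lower fitted value at every dose, with log2 fold changes of -0.30 ± 0.43, -0.31 ± 0.43 and -0.63 ± 0.43, of which the last 2 turn to 0.19 and 0.11 when scaled by library totals. Without control replicate 2 the low-dose value was 0.0064, and without control replicate 1 the low-, medium- and high-dose values were at their lowest, at -0.72, -0.73 and -1.05.

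Cyp51 encodes the cytochrome P450 that strips a methyl group from lanosterol. Its CPM was 5.44, 10.3 and 7.29 in the controls, 4.45, 8.80 and 28.7 at the low dose, 14.1, 10.6 and 2.62 at the medium dose and 34.1, 4.46 and 17.8 at the high dose. Each dose group reached above and below the controls, as for Hmgcs1. The log2 fold changes were 0.87 ± 0.78, 0.25 ± 0.77 and 1.29 ± 0.78, the last being the highest fitted value of any member at any dose, with a 95% interval from -0.40 to 2.99. Without low replicate 3 the low-dose value was -0.22, without medium replicate 1 the medium-dose value was -0.22, and without high replicate 1 the high-dose value was 0.54.

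Srebf2, the gene of the regulator, was the steadiest member. Its CPM was 6.70, 15.0 and 16.9 in the controls, 11.4, 16.5 and 14.9 at the low dose, 13.7, 17.7 and 8.27 at the medium dose and 15.4, 14.1 and 11.2 at the high dose. Control replicate 1 was again the lowest, and the livers of all groups overlapped. The log2 fold changes of 0.15 ± 0.35, 0.04 ± 0.35 and 0.08 ± 0.35 had 95% intervals of -0.61 to 0.92, -0.73 to 0.80 and -0.69 to 0.84. All 3 turned negative when scaled by totals without mitochondrial genes, to -0.029, -0.088 and -0.24, and without control replicate 1 they were -0.16, -0.27 and -0.24.

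**Figure D1:**
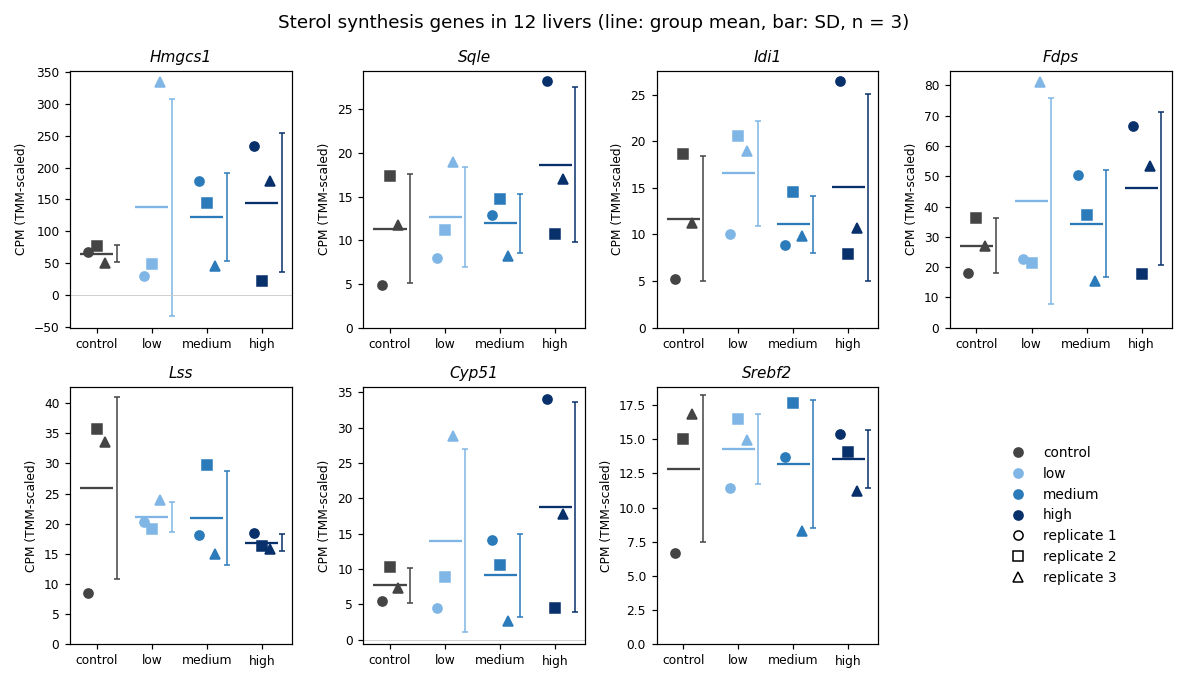
Level of each of the 7 genes (vertical axis, TMM-scaled CPM) in each liver, by group (horizontal axis); symbols give the replicate, lines the group mean and bars the SD of 3 livers. In Hmgcs1 and Cyp51 each curcumin group spreads to both sides of the controls, as does Fdps at the medium dose. At the high dose the lowest Fdps value nearly equals the lowest control. Srebf2 shows the least spread.

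Per kilobase of the longest coding transcript, the mean level over 12 livers was 33.9 CPM per kb for Hmgcs1 and 27.0 for Fdps. The others followed at 4.95 CPM per kb for Sqle, 4.55 for Lss, 4.49 for Idi1, 3.15 for Cyp51 and 2.65 for Srebf2. Neighbours in this order overlapped across livers, except that the lowest Fdps value lay above the highest Sqle value. Livers of the same group differed widely. The highest value of Hmgcs1 was 11.37 times the lowest at the low dose and 10.36 times at the high dose, against 1.52 times in the controls. The SD of log2 CPM within groups was 1.42 for Hmgcs1, above that of 99.0% of the 9641 genes whose log2 CPM averaged 1 or more, and 1.22 for Cyp51 (98.2%). Fdps followed at 0.90 (93.8%), Idi1 at 0.73 (88.1%), Sqle at 0.70 (86.7%), Lss at 0.65 (83.5%) and Srebf2 at 0.49 (67.6%), where the median gene had 0.39.

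The dose comparisons ask whether curcumin moved these transcripts in CCl4-injured liver. No member passed edgeR's quasi-likelihood test at any dose. At the low dose 0 of 7 had an adjusted p under 0.05, as had 0% of the 16839 genes tested, and 0 of 7 had an unadjusted p under 0.05, against 5.99% of all genes. The lowest adjusted p among the members by this edgeR test was 0.876 at the low dose (Hmgcs1), 0.997 at the medium dose and 0.479 at the high dose (Cyp51). At the medium dose 0 of 7 passed with or without adjustment (0% and 5.58% of all genes), and at the high dose again 0 of 7 (0% and 12.8%). In none of the 7 did a dose group stand clear of the controls, a pattern that all genes showed upwards in 7.41%, 7.61% and 6.47% and downwards in 6.36%, 6.38% and 6.52% at the low, medium and high dose. Fitted values above 0 were found for 6, 5 and 6 of the 7 members at the low, medium and high dose, against 51.1%, 51.9% and 52.2% of all genes, but several of these signs turn with the scaling (Idi1, Lss, Sqle and Srebf2, as given above). The median over members was 0.50, 0.07 and 0.72, where that of all genes was 0.01, 0.02 and 0.03. The 3 doses share their controls, so these medians are not independent of each other.

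**Figure D2:**
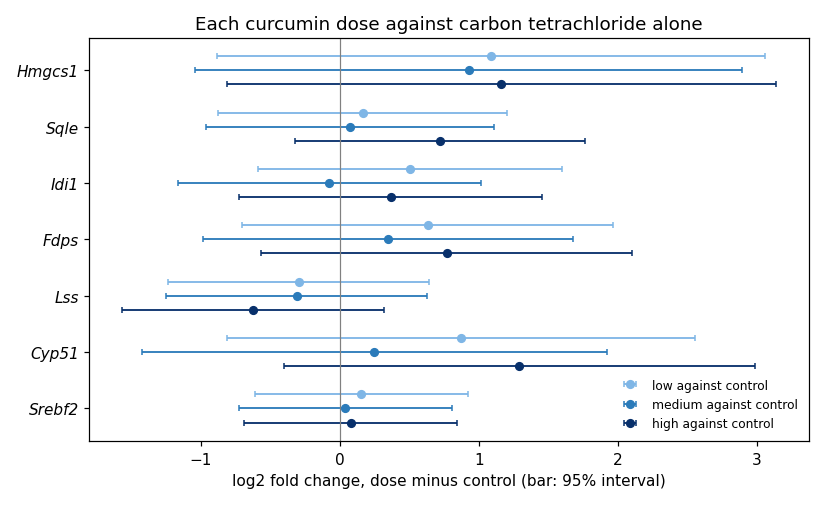
Log2 fold change of each gene at each curcumin dose against CCl4 alone (horizontal axis, dose minus control), with 95% intervals from the edgeR fit of 12 livers. All 21 intervals cross 0; they are widest for Hmgcs1 and Cyp51 and narrowest for Srebf2, and Lss lies left of 0 at every dose on this TMM scale (at 0.19 and 0.11 for the medium and high dose when scaled by library totals).

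A slope on dose in mg/kg was fitted to ask whether levels followed the dose. Over 100 mg/kg it was 1.03 ± 0.70 (log2 scale, SE) for Cyp51, 0.86 ± 0.87 for Hmgcs1, 0.69 ± 0.42 for Sqle and 0.59 ± 0.56 for Fdps. It was 0.18 ± 0.47 for Idi1, 0.03 ± 0.32 for Srebf2 and -0.58 ± 0.39 for Lss, the last at 0.17 when scaled by library totals and those of Idi1 and Srebf2 at -0.24 each when scaled by totals without mitochondrial genes. Thus 6 of 7 slopes lay above 0, as did 52.4% of all slopes. None of the 7 slopes passed (0% of all genes at an adjusted p under 0.05, edgeR), and 0 of 7 had an unadjusted p under 0.05, against 11.0% of all genes. The F test among the 3 doses gave adjusted p = 0.986 to 0.996 for the members in edgeR, with 0% of all genes passing and 3.65% at an unadjusted p under 0.05, a level that 0 of 7 members reached. In simulated counts the edgeR test of a dose against control found 4.5%, 9% and 6% of 2-fold changes at the low, medium and high dose and 83.6%, 76.1% and 76.1% of 4-fold ones, so most changes of 2-fold went undetected there. Recovery was not simulated for the slope or the test among doses, nor for the members as a set. The changed genes were drawn from all genes with a mean log2 CPM of 1 or more. Hmgcs1 and Cyp51 varied more within groups than 99.0% and 98.2% of such genes, so the recovery of 4-fold changes need not hold for them.

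Most members had correlated levels across the 12 livers. The mean of log2 CPM, each gene centred on its own mean, was highest in high replicate 1 (0.97) and low replicate 3 (0.95) and lowest in control replicate 1 (-0.96) and medium replicate 3 (-0.82). Each of the 4 groups therefore held livers on either side of 0. In control replicate 1 and medium replicate 3, 0 of the 7 genes lay above their own mean, and in low replicate 3 and medium replicate 2 all 7 did. Over the 21 pairs of members, Pearson's r across 12 livers had a median of 0.64 (range 0.13 to 0.95). All pairs come from the same libraries, and the median r of all 46469620 pairs among the 9641 genes was 0.004, with 11.3% of pairs at or above 0.64.

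Hmgcs1, Idi1, Fdps, Sqle and Cyp51 were the closer group, a split made after the values were seen. Their 10 pairs had a median r of 0.82 (0.45 to 0.95), a level that 3.16% of all gene pairs reached, and the closest pair was Fdps and Cyp51 at 0.95. With group means removed their median was 0.83. At constant mitochondrial share, a measure also added after the values were seen, the order turned: the median was 0.61 for these 10 pairs, 0.75 for the pairs with Lss and 0.74 for those with Srebf2. Lss was closest to Srebf2, with r of 0.81 and 0.88 with group means removed, while its r with Hmgcs1 was 0.13.

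The enzymes other than Idi1 and Lss ran against the mitochondrial share of the library. Hmgcs1 had r = -0.869 with that share over 12 livers (permutation p = 9e-05, adjusted 0.00063) and Spearman rho = -0.867 (permutation p = 0.00052, adjusted 0.00364). Cyp51 had r = -0.848 (permutation p = 0.00026, adjusted 0.0007) and rho = -0.769 (permutation p = 0.00446, adjusted 0.0144). Fdps had r = -0.843 (permutation p = 0.0003, adjusted 0.0007) and rho = -0.755 (permutation p = 0.00616, adjusted 0.0144). The livers with little mitochondrial RNA were those with the most transcript of these 3 enzymes. Sqle was weaker at r = -0.7 (permutation p = 0.0106, adjusted 0.0186), and its rank correlation did not pass after adjustment (rho = -0.608, permutation p = 0.0412, adjusted 0.0721). The p-values are two-sided and adjusted over the 7 members. Leaving out high replicates 1 and 3, the livers farthest from the median share, gave r of -0.931, -0.763 and -0.84 for Hmgcs1, Cyp51 and Fdps and -0.443 for Sqle. The r of Sqle was thus weaker without those livers, a difference that was not tested. With group means removed, r was -0.941, -0.878, -0.867 and -0.616 for Hmgcs1, Cyp51, Fdps and Sqle.

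No such relation passed for Idi1 (r = -0.42, permutation p = 0.177, adjusted 0.248, rho = -0.273), Srebf2 (r = -0.103, permutation p = 0.759, adjusted 0.759, rho = 0.154) or Lss (r = 0.0998, permutation p = 0.754, adjusted 0.759, rho = 0.203). Many genes follow this share in these livers. An r as low as that of Hmgcs1 was found in 9.06% of the 9641 genes. For Cyp51 the figure was 10.9%, for Fdps 11.2% and for Sqle 21.2%. The 4 livers with the lowest share were also the 4 with the highest Hmgcs1, the 4 with the highest Cyp51, the 4 with the highest Fdps and the 4 with the highest hepatocyte marker sum. By group that sum ran from 5134 to 11715 CPM in the controls, 4469 to 31782 CPM at the low dose, 6633 to 25216 CPM at the medium dose and 4521 to 45930 CPM at the high dose, and its part in these relations was not tested. In bulk tissue, fewer cells of a type and less RNA per cell cannot be told apart.

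With the share as a covariate in the edgeR fit, the high-dose log2 fold changes turned to -1.21 ± 0.41 for Hmgcs1 (adjusted p = 0.442), -0.63 ± 0.47 for Cyp51, -0.55 ± 0.37 for Fdps, -0.29 ± 0.57 for Idi1 and -0.033 ± 0.43 for Sqle. Lss (-0.69 ± 0.52) and Srebf2 (0.041 ± 0.39) kept their signs. The share averaged 61.2%, 56.9%, 54.7% and 45.7% in the control, low, medium and high groups. It spanned 58.6% to 64.2% in the controls and 30.3% to 64.7% at the high dose. Share and dose are therefore partly confounded, and the values with the covariate cannot separate an effect of dose from the share. Leaving out the 3 livers with the lowest share, which leaves 1 liver at the high dose that is assumed to vary like the other groups, gave -1.53 for Hmgcs1 and -0.79 for Cyp51.

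**Figure D3:**
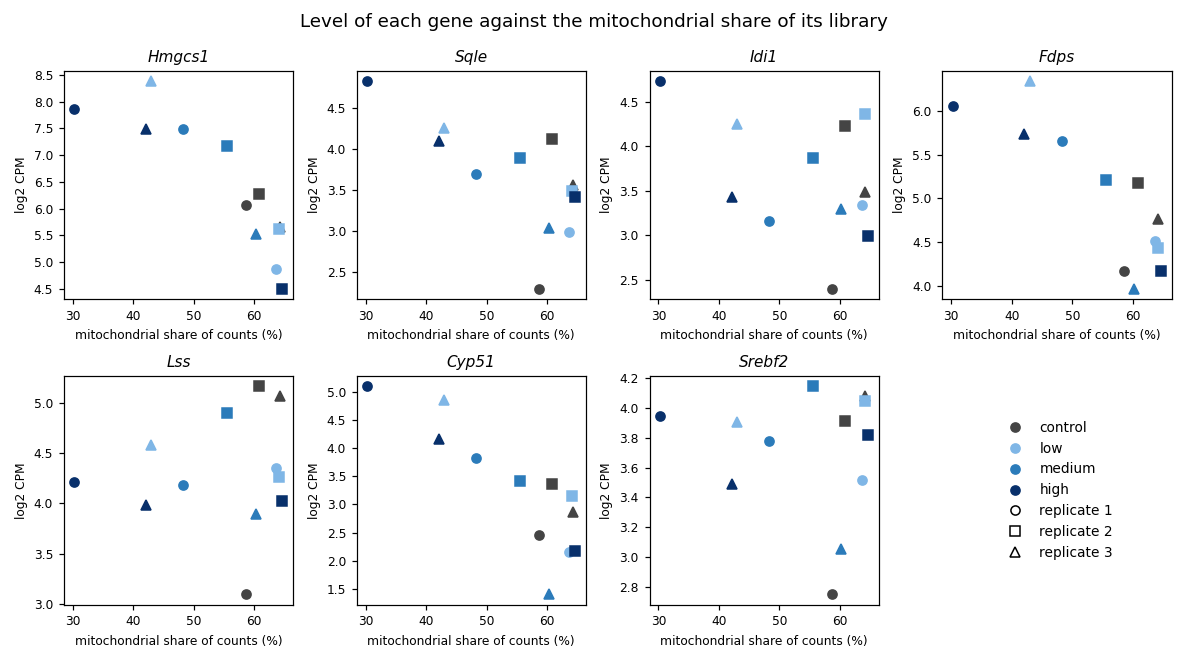
Log2 CPM of each gene (vertical axis) against the percentage of a library's counts on mitochondrially encoded genes (horizontal axis), 1 point per liver, coloured by group. Hmgcs1, Fdps and Cyp51 fall from left to right with r of -0.869, -0.843 and -0.848, and Lss and Srebf2 show no slope (0.0998 and -0.103).

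The rest of the synthesis chain was read from a list of 14 other enzymes, all of which were tested. None passed at any dose; 8, 4 and 6 of the 14 had fitted values above 0 at the low, medium and high dose, with medians of 0.02, -0.12 and -0.05 on the log2 scale. At the high dose the smallest p-values in the list included those of Ebp, a sterol isomerase (17.9 ± 3.97 CPM in control and 49.2 ± 34.7 CPM at the high dose, SD, n = 3 each; log2 fold change 1.46 ± 0.73, edgeR adjusted p = 0.414), and of Ggps1 (-0.58 ± 0.30), which makes a longer isoprenoid. Ebp was above 50 CPM in the 4 low-share livers and between 13.2 and 21.5 CPM in the other 8. Mvd, which makes isopentenyl diphosphate, had 13.1 ± 9.74 CPM in control and 5.34 ± 1.51 CPM at the high dose (-1.30 ± 0.68, edgeR adjusted p = 0.423). Its values were 2.06, 20.4 and 16.9 CPM in the controls, with control replicate 1 the lowest of all 12 livers, as for Idi1, Lss, Sqle and Srebf2.

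Across the 12 livers these other enzymes moved with the members. The r of each with the members' mean had a median of 0.74 over the 14, and 10 of them were above 0.7, where 5.79% of the 9641 genes were. Hsd17b7 (0.90), Dhcr7 (0.89) and Nsdhl (0.89), which act late in the chain, were highest, and Ggps1, off the sterol branch, was lowest at -0.48. Holding the mitochondrial share constant, the median was 0.76 and 9 of 14 were above 0.7, a level that 0.695% of all genes reached. On this measure Mvd had 0.90 in place of 0.32, Pmvk 0.82 in place of 0.21 and Ebp 0.13 in place of 0.75. Among the members themselves, the median r of the 21 pairs at constant share was 0.68, with Lss and Srebf2 at 0.83 and Sqle and Lss at 0.87. The livers that stood high at constant share were control replicate 2 (0.60), low replicate 3 (0.44) and medium replicate 2 (0.42), and control replicate 1 (-0.79) and medium replicate 3 (-0.58) stood low. Each of these is a correlation over 12 shared libraries and is given as a description.

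**Figure D4:**
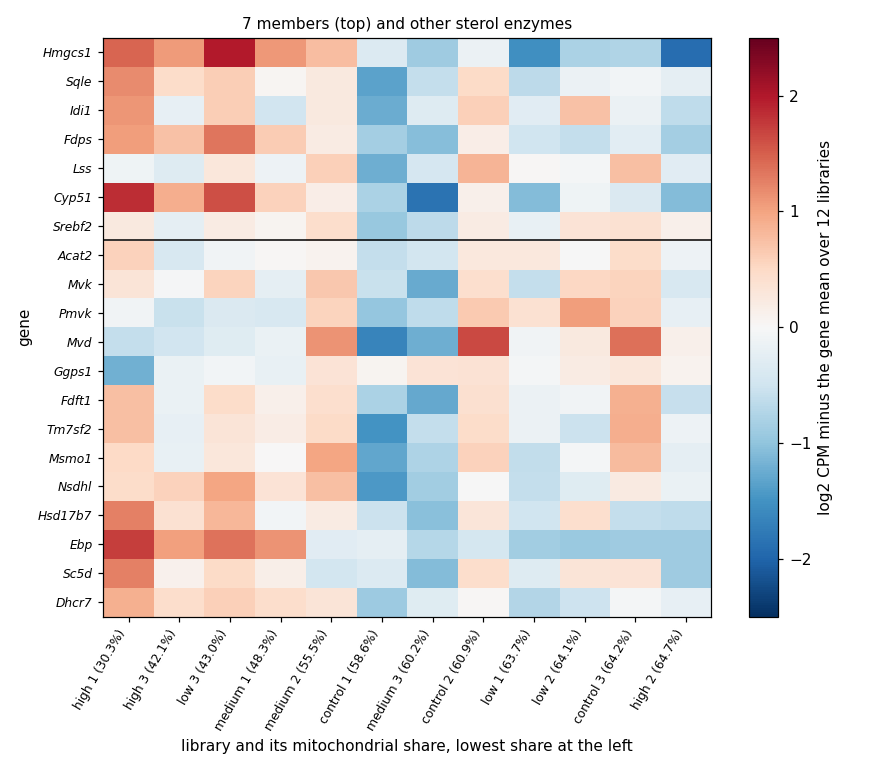
Level of the 7 members (above the line) and of other enzymes of the chain (below it) in each liver, as log2 CPM minus the gene's mean over 12 livers (colour), with livers ordered by mitochondrial share along the horizontal axis. The columns of control replicate 1 and medium replicate 3 are blue for nearly all genes, and Hmgcs1, Fdps, Cyp51 and Ebp are red in the 4 livers at the left.

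Genes that control SREBP-2 processing formed a list of 6 together with Srebf1, which is not one of them. Of the 6, 2 had fitted values above 0 at each dose, with 0 past the test. The medians of the 6 were -0.24, -0.26 and -0.34. Scap, the escort, had 32.5, 31.3 and 44.1 CPM in the controls and 23.7, 28.1 and 23.8 CPM at the medium dose, where the groups did not overlap (-0.52 ± 0.26, edgeR adjusted p = 0.944). It was the 1 gene of the 6 with such a gap at that dose, against 6.38% of all genes downwards. Insig1, itself an SREBP target and its brake, had an r of 0.76 with the members' mean and 0.77 at constant share. Its level was 129.2 ± 41.1 CPM in control and 101.8 ± 32.6 CPM at the high dose (SD, n = 3 each). Srebf1, the gene of the lipogenic relative of SREBP-2, had an r of -0.31 with the members' mean and 0.27 at constant share.

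The list of cholesterol uptake, transport and efflux held 15 tested genes, of which 6, 5 and 8 lay above 0 at the low, medium and high dose and 0 passed. Nr1h2, which encodes the oxysterol receptor LXR-beta, had 32.1, 34.3 and 39.4 CPM in the controls, 22.1, 25.1 and 20.3 CPM at the low dose, 25.6, 31.5 and 25.7 CPM at the medium dose and 22.1, 32.1 and 20.6 CPM at the high dose. On this TMM scale it lay below all controls in every curcumin liver, with 32.05 against 32.14 CPM as the closest values. At each dose it was the 1 gene of the 15 to do so, against 6.36%, 6.38% and 6.52% of all genes at the low, medium and high dose. The share of all genes below the controls in every curcumin liver was not computed. Its log2 fold changes were -0.65 ± 0.25, -0.35 ± 0.24 and -0.50 ± 0.24 (edgeR adjusted p = 0.8, 0.997 and 0.408). The genes outside the 7 members were not refitted under other scalings. Scarb1, the HDL receptor gene, cleared the controls upwards at the medium dose, at 19.9 to 23.6 CPM against 13.4 to 18.9 CPM. It was the 1 gene of the 15 to do so there, against 7.61% of all genes. The median r of the list with the members' mean was -0.32, from -0.76 for the sterol exporter gene Abcg5 to 0.72 for the sterol carrier gene Stard4. At constant share the median was -0.012, with Abcg5 at -0.31 and Stard4 at 0.43.

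Fatty acid synthesis is the arm that SREBP-1c serves. Its 7 genes had a median r of 0.06 with the members' mean and -0.018 at constant share. The highest was the malic enzyme gene Me1 at 0.42 as measured, and Acaca at 0.46 at constant share. At the low, medium and high dose 6, 2 and 5 of the 7 lay above 0, with 0 past the test. Thrsp, a lipogenic hormone-responsive gene, had a log2 fold change of 1.14 ± 0.50 at the low dose, and Acly, which supplies cytosolic acetyl-CoA to both arms, 0.83 ± 0.38 at the high dose (edgeR adjusted p = 0.814 and 0.389).

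**Figure D5:**
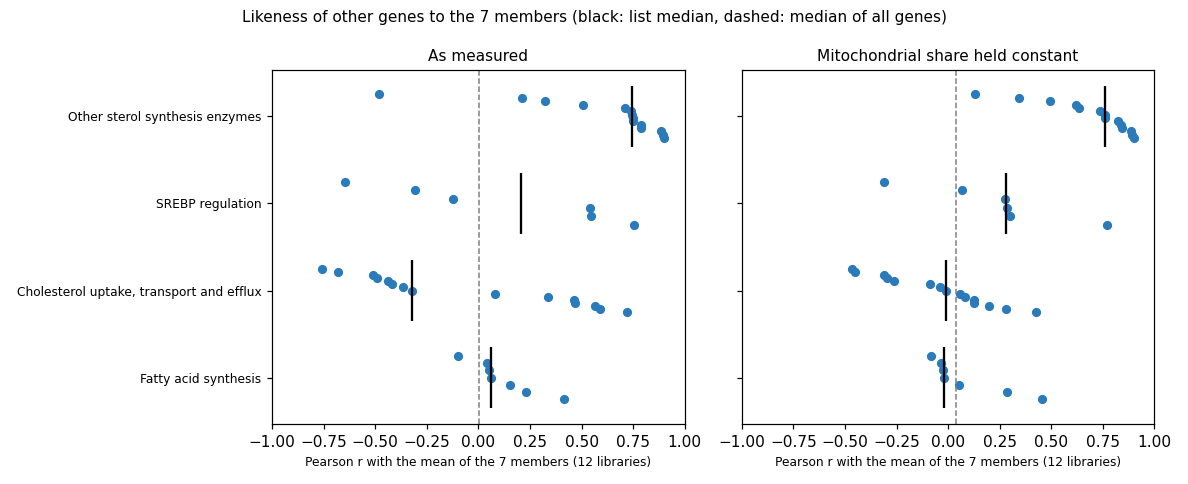
Pearson's r of each gene with the mean of the 7 members over 12 livers (horizontal axis), by list (vertical axis), as measured at the left and with the mitochondrial share held constant at the right; black lines are list medians and the dashed line is the median of all genes. The other sterol enzymes sit mostly above 0.7 in either panel, while the median of the fatty acid synthesis genes lies near 0 in each. The highest of these genes is at 0.42 in the left panel and 0.46 in the right.

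Outside these lists, the 5 genes most like the members' mean among 9067 named genes were Stt3b (r = 0.90), Rdh11 (0.89), Erg28 (0.88), Mmp14 (0.87) and Ubl7 (0.87). Erg28, named after a yeast gene of ergosterol synthesis, ran from 3.1 CPM in high replicate 2 to 29.5 CPM in high replicate 1, and its r with single members reached 0.95. Rdh11, a retinol dehydrogenase gene, ran from 1.62 CPM in high replicate 2 to 13.0 CPM in high replicate 1. These values were chosen as the highest over 12 livers and describe likeness alone.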

How the data were processed

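The authors deposited gene counts for 12 liver libraries, as whole numbers without normalization and with a column for each library. The submitters' processing notes name fastp 0.23.4, STAR 2.7.10b, StringTie 2.2.1 and the build mm39. No source used here says which step counted, whether it used strand, or where reads shared by several genes went. Totals ran from 36015134 to 70376474 counts. All 7 members were found by symbol through GENCODE M21, whose longest coding transcript gave the length per gene. Counts were tested in R 4.3.3 with edgeR 4.0.16 (filterByExpr, TMM, robust quasi-likelihood fits of all 12 libraries, Benjamini-Hochberg over 16839 genes, threshold 0.05); standard errors were computed as the fold change over the root of F. DESeq2 1.42.0 and limma 3.58.1 (voom with library weights) were alternatives, as were 2 other scalings, no filter, a replicate block, the mitochondrial share as a covariate and leaving out each library. Levels for correlation are log2 CPM with a prior count of 2, and correlations with the mitochondrial share used 100000 permutations. The fit was tested on simulated data. Promoter letters were searched on both strands. The members and gene lists were chosen with earlier results of these data known. Named genes are the 7 members, at most 3 genes per other list and comparison by smallest p or for their place in the pathway, and the 5 most like the members' mean; genes named for a clear gap between groups, and those named for their r with the members' mean, were chosen after their values were seen. The values of 1 gene of the other sterol enzymes are not reported here singly; it is counted in the list's totals.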

Additional observations from a re-analysis of the deposited data

How the results depend on the processing

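No member passed under any alternative, and with 3 livers a group the fitted signs are not stable. Scaled by library totals, the median of all genes moved to 0.11, 0.47 and 0.71 at the low, medium and high dose; Idi1 and Lss turned to 0.36 and 0.19 at the medium dose, and Lss to 0.11 at the high dose and 0.17 in the slope. Scaled by totals without mitochondrial genes and their copies, that median moved to -0.14, -0.085 and -0.25; Sqle and Srebf2 turned to -0.092 and -0.029 (low) and -0.078 and -0.088 (medium), and Idi1 and Srebf2 to -0.11 and -0.24 (high) and -0.24 and -0.24 (slope). With limma voom Hmgcs1, Sqle and Fdps turned to -0.51, -0.066 and -0.091 (low), Idi1 and Cyp51 to 0.065 and -0.28 (medium), Idi1 and Srebf2 to -0.0032 and -0.065 (high) and Idi1 to -0.014 (slope). With the mitochondrial share as a covariate Hmgcs1 and Sqle turned to -0.18 and -0.11 (low), Hmgcs1, Sqle, Fdps and Cyp51 to -0.0079, -0.23, -0.25 and -0.57 (medium), Hmgcs1, Sqle, Idi1, Fdps and Cyp51 to -1.21, -0.033, -0.29, -0.55 and -0.63 (high), and Hmgcs1, Sqle, Idi1, Fdps, Cyp51 and Srebf2 to -1.17, -0.026, -0.49, -0.61, -0.75 and -0.011 (slope). Without low replicate 3 and high replicates 1 and 3, left out together after their shares were seen, Hmgcs1, Sqle, Fdps and Cyp51 turned to -0.75, -0.27, -0.31 and -0.23 (low), Hmgcs1, Sqle, Idi1, Fdps and Cyp51 to -1.53, -0.091, -0.57, -0.60 and -0.79 (high), and Idi1, Fdps and Cyp51 to -0.55, -0.12 and -0.33 (slope). Apart from the share and the left-out livers, where the changed term and samples make the difference, the cause was not tested.

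Leaving out each library in turn gave ranges that cross 0 at the low dose for Hmgcs1 (-0.73 to 1.56), Sqle (-0.26 to 0.61), Fdps (-0.30 to 0.94), Lss (-0.72 to 0.0064), Cyp51 (-0.22 to 1.29) and Srebf2 (-0.16 to 0.39). At the medium dose they did so for Sqle (-0.29 to 0.52), Idi1 (-0.43 to 0.44), Fdps (-0.037 to 0.69), Cyp51 (-0.22 to 0.68) and Srebf2 (-0.27 to 0.29), at the high dose for Idi1 (-0.33 to 0.88) and Srebf2 (-0.24 to 0.32), and in the slope for Idi1 (-0.52 to 0.46) and Srebf2 (-0.20 to 0.16).

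Over all genes edgeR called 0 in every comparison (1008, 940, 2152, 1853 and 614 at an unadjusted p under 0.05 for the low, medium and high dose, the slope and the test among doses). DESeq2 called 42, 89, 172, 64 and 16 in that order; limma voom called 35 at the medium dose, 224 at the high dose and 12 among doses. Leaving out single libraries gave 0 to 2 calls at the low dose and 0 to 4 among doses, and leaving out the 3 low-share livers 4, 12, 4, 1 and 6. With the replicate block edgeR again called 0 genes in each comparison and no member. Of 18 same-numbered pairs of livers, 5 deviated from their group means together at r above 0.1 (range -0.26 to 0.45). Differently numbered pairs ranged from -0.48 to 0.35. These values do not settle whether the replicate numbers mark a shared day or batch, and no label says so.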
